A study of Mus musculus with 8 samples.

Results

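Kat6a, also called Moz, is the histone acetyltransferase gene for which the leukaemias of this series are named, and it was followed here with 7 genes of the same acetylation machinery. These were its paralogue Kat6b, Ncoa2 (a fusion partner in human leukaemia), the complex subunits Brpf1, Ing5 and Meaf6, and the coactivators Crebbp and Ep300. They were taken by name from the 31574 entries of the larger deposited table, 6 by gene symbol and 2 by alias, since the table lists Kat6a as Myst3 and Kat6b as Myst4. All 8 lay above the floor of detection in all 8 libraries and entered every test, and 0 of 8 were in the smaller deposited table of 4576 genes with at least a 2-fold tamoxifen difference.

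The c-kit+ cells of acute myeloid leukaemias, taken from femur and tibia bone marrow of C57BL/6 mice, were sequenced as RNA, and every sample title carries the name Moz. Of the 8 libraries, 2 were Ezh1-null tamoxifen (Ezh1-/- Ezh2-/-), 2 were Ezh1-null oil (Ezh1-/- Ezh2+/+), 2 were Ezh1-present tamoxifen (Ezh1+/+ Ezh2-/-) and 2 were Ezh1-present oil (Ezh1+/+ Ezh2+/+). The oil libraries are labelled Ezh2+/+ although the series' design text gives their Ezh2 alleles as floxed and those of the tamoxifen libraries as deleted. Tamoxifen was given in corn oil by intraperitoneal injection at 10 mg/kg/day for 5 doses, and the cells were taken 7 days after treatment. The sources used here do not give the Cre driver, the age of the mice, any pooling or the fusion partner in the sequenced leukaemias. Tamoxifen and Ezh2 deletion cannot be told apart, and neither can Ezh1 genotype and leukaemia of origin if each genotype was its own leukaemia. The labels do not say that the 2 libraries of a group came from separate animals, so each p measures the spread between libraries, which may be technical.

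Lysine acetyltransferases place acetyl groups on histone tails, and acetylated chromatin is generally more open to transcription. Kat6a and Kat6b are alternative catalytic subunits of a complex in which a Brpf protein is the scaffold, Ing5 reads methylated histone H3 and Meaf6 is a small accessory subunit. In human acute myeloid leukaemia, chromosome rearrangements join KAT6A to the nuclear receptor coactivator NCOA2 (the MOZ-TIF2 fusion) or to the acetyltransferase genes CREBBP or EP300, and the NCOA2 part of MOZ-TIF2 recruits CREBBP.

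Each level is a log2 value set against the median of that gene in the 8 libraries, so levels compare libraries for 1 gene and not genes with each other. Ezh1 differed by -3.53 ± 0.10 on the log2 scale (SE) between Ezh1-null oil and Ezh1-present oil libraries (limma with Benjamini-Hochberg adjustment, adjusted p = 0.00108). Ezh2 differed by -0.47 ± 0.08 between tamoxifen and oil in Ezh1-null cells (adjusted p = 0.0554) and by -0.18 ± 0.08 in Ezh1-present cells (adjusted p = 0.293), so the gene-level values did not show a called loss of Ezh2 RNA after tamoxifen. Between Ezh1-null oil and Ezh1-present oil libraries, both labelled Ezh2+/+, Ezh2 was called lower at -0.31 ± 0.08 (limma adjusted p = 0.0492). Between Ezh1-null tamoxifen and Ezh1-present tamoxifen libraries it was called lower at -0.60 ± 0.08 (adjusted p = 0.02). Total counts cannot be recovered from the deposited values. The normalized value of 1 read, a rough measure of relative depth, ran from 0.746 in the deepest library (Ezh1-present tamoxifen replicate 1) to 1.24 in the shallowest (Ezh1-null oil replicate 1). Markers of leukaemic and myeloid progenitors, Kit among them, were above the floor in every library for all 10 genes of the list. Markers of other cell types differed between Ezh1-null oil and Ezh1-present oil libraries in both directions. Among the lists with the largest shifts, 6 of 8 B cell markers (list median 5.50, log2), 6 of 9 mature neutrophil markers (median 4.44) and 5 of 8 mast cell, basophil and eosinophil markers (median 5.17) were called higher, where 12.5% of all genes tested were called higher and 12.4% lower. Of the erythroid markers, 8 of 8 lay above 0 (median 2.66, 1 called higher), and of the T and NK cell markers 4 of 10 were called higher and 1 lower (median 0.42). The megakaryocyte and platelet list had 1 of 7 called higher and 1 lower (median -0.04), and 6 of 7 stromal and endothelial markers lay below 0 (median -0.53, 1 called lower). The median relative value of the B cell list was 3.62 and 2.75 in Ezh1-null oil against -1.31 and -2.39 in Ezh1-present oil libraries, and that of the neutrophil list was 0.76 and 1.44 against -3.53 and -2.89. The mast cell, basophil and eosinophil list had medians of 0.28 and 1.56 in Ezh1-null oil against -4.08 and -4.22 in Ezh1-present oil libraries. Pax5, which defines B cells, was at the floor in both Ezh1-present oil libraries, as was Fcer1a of mast cells and basophils.

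Ezh1-null leukaemia cells had less Kat6a RNA than Ezh1-present cells, after oil and after tamoxifen. Kat6a (gene 244349, mm10 chr8:22859539-22943262) had log2 relative values of -0.41 and -0.34 in Ezh1-null tamoxifen, -0.22 and -0.35 in Ezh1-null oil, 0.22 and 0.22 in Ezh1-present tamoxifen, and 0.80 and 0.56 in Ezh1-present oil libraries. All 4 Ezh1-null libraries lay below all 4 Ezh1-present libraries, the 2 Ezh1-null groups overlapped, and Ezh1-present oil lay above Ezh1-present tamoxifen. Between Ezh1-null oil and Ezh1-present oil the log2 difference was -0.96 ± 0.11 (SE, 95% interval -1.25 to -0.67, limma adjusted p = 0.00638), which puts Ezh1-null oil libraries at 51.3% of the Ezh1-present oil level. Between Ezh1-null tamoxifen and Ezh1-present tamoxifen it was -0.59 ± 0.11 (95% interval -0.88 to -0.30, adjusted p = 0.0364), or 66.4% of the Ezh1-present tamoxifen level. In bulk RNA, fewer cells of a type and less RNA per cell cannot be told apart. The values also do not resolve exons, so reads of a fusion transcript and of the unrearranged mouse gene cannot be told apart. The same holds for Ncoa2, Crebbp or Ep300 if it was the fusion partner.

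The oil difference of Kat6a was called in 15 of 15 alternative analyses, with adjusted p from 0.00442 to 0.0451. The tamoxifen difference was called in 6 of 15, with adjusted p from 0.0121 to 0.147. It was no longer called without Ezh1-null tamoxifen replicate 1 (adjusted p = 0.147) or replicate 2 (0.113), without Ezh1-present tamoxifen replicate 1 (0.118) or replicate 2 (0.109), or without either Ezh1-null oil library (0.0622 for each), and its log2 value was -0.59 with all 8 libraries and between -0.62 and -0.56 in these 6 analyses.

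Ncoa2, the steroid receptor coactivator also known as TIF2, followed Kat6a across the 4 groups. Ncoa2 (gene 17978, chr1:13139159-13374083) had log2 relative values of -0.31 and -0.29 in Ezh1-null tamoxifen, -0.12 and -0.32 in Ezh1-null oil, 0.37 and 0.12 in Ezh1-present tamoxifen, and 0.82 and 0.64 in Ezh1-present oil libraries. As for Kat6a, all Ezh1-null libraries lay below all Ezh1-present libraries, the 2 Ezh1-null groups overlapped, and Ezh1-present oil was highest. The log2 difference between Ezh1-null oil and Ezh1-present oil was -0.95 ± 0.14 (95% interval -1.30 to -0.61, limma adjusted p = 0.00958), 51.6% of the Ezh1-present oil level. It was called in 13 of 15 alternatives, with adjusted p from 0.00674 to 0.0543, and was no longer called without Ezh1-null oil replicate 2 (adjusted p = 0.05, log2 -0.85) or without Ezh1-present oil replicate 1 (0.0543, log2 -0.87). After tamoxifen the difference was -0.54 ± 0.14 (adjusted p = 0.0607), which was not called, and it passed in 2 of 15 alternatives, whose adjusted p ran from 0.0293 to 0.2.

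**Figure D1:**
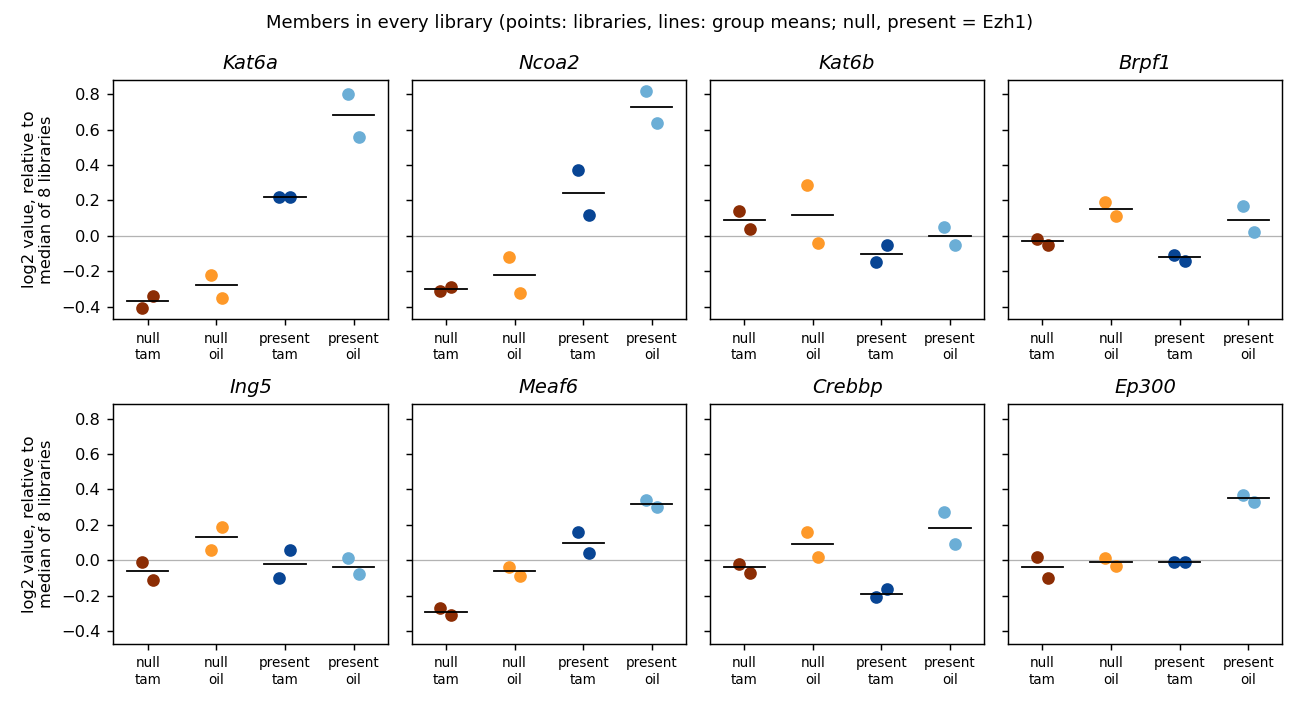
Log2 value relative to the gene's median over 8 libraries (vertical axis) for the 8 genes in each library (points) of the 4 groups, with group means as lines (tam, tamoxifen). Kat6a and Ncoa2 span 1.20 and 1.14, with all Ezh1-null libraries below all Ezh1-present libraries, while Ing5 and Brpf1 span 0.30 and 0.33.

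The difference between the Kat6a and the Ncoa2 value within a library was set against the mean of that difference over the 8 libraries. It then ran from -0.10 to 0.15 with an SD of 0.07, a range of 0.24 against 1.20 for Kat6a itself. Their Pearson r was 0.987 over the 8 libraries, which fall into 4 groups, so it mostly describes the group means. If Ncoa2 was the fusion partner, reads of a fusion transcript may be part of both values, which was not tested. Among the 15516 other genes above the floor in every library, Ncoa2 ranked 17 by its r with Kat6a. The closest were Pan3 (r = 0.994), Pccb (0.992), Phldb1 (0.992), Usp8 (0.991) and Igf2bp3 (0.991). For Ncoa2 the closest were Ilkap (0.995), Dmc1 (0.994), Gpc2 (0.993), Zmiz1 (0.993) and Pccb (0.990), and Kat6a ranked 16. Thus 16 genes lay closer to Kat6a than Ncoa2 did. These correlations share libraries and scaling and are given as a description.

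**Figure D2:**
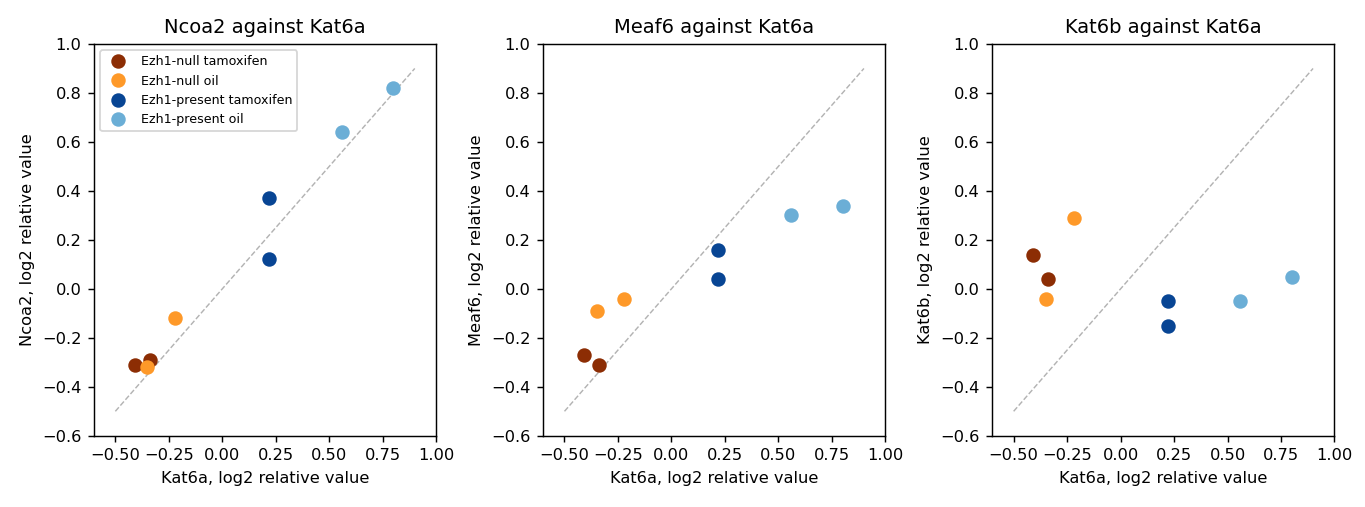
Log2 relative value of Ncoa2, Meaf6 and Kat6b (vertical axes) against that of Kat6a (horizontal axis) in the 8 libraries, coloured by group, with the line of equal values dashed. Ncoa2 lies near the line (r = 0.987), Meaf6 follows with a smaller range (0.65 against 1.20), and Kat6b does not follow (r = -0.368).

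Genes near Kat6a and Ncoa2 on their chromosomes were looked at as a description, chosen after the data were seen. They were the nearest 2 genes on each side that lay above the floor in all 8 libraries. Between Ezh1-null oil and Ezh1-present oil, the neighbours of Kat6a had positive log2 differences, 0.61 ± 0.23 for Ap3m2 (limma adjusted p = 0.111), 0.13 ± 0.10 for Ikbkb (0.377), 2.74 ± 1.19 for Ank1 (0.156) and 0.44 ± 0.08 for Agpat6 (0.0213). Of the neighbours of Ncoa2, Slco5a1 was 148 kb away and differed by -1.24 ± 0.18 (0.0106), Tram1 was 191 kb away and differed by -0.57 ± 0.10 (0.0149), Lactb2 was 252 kb away and differed by -1.25 ± 0.16 (0.00742), and 4932411L15 was 466 kb away and differed by -0.63 ± 0.24 (0.114). Of the 4 genes around Ncoa2, 3 were called lower in Ezh1-null oil, and of the 4 around Kat6a, 0 were called lower by limma and Agpat6 was called higher. Over all genes tested, which include genes at the floor in some libraries, 12.4% were called lower in this comparison.

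Kat6b, the paralogue that can take the place of Kat6a in the complex, was not called in either comparison of the genotypes. Kat6b (gene 54169, chr14:21499770-21672478) had log2 relative values of 0.14 and 0.04 in Ezh1-null tamoxifen, 0.29 and -0.04 in Ezh1-null oil, -0.15 and -0.05 in Ezh1-present tamoxifen, and 0.05 and -0.05 in Ezh1-present oil libraries. The 2 oil groups overlapped and the Ezh1-null tamoxifen libraries lay just above the Ezh1-present tamoxifen ones. The log2 difference was 0.12 ± 0.14 between Ezh1-null oil and Ezh1-present oil (95% interval -0.23 to 0.47, limma adjusted p = 0.555) and 0.19 ± 0.14 between Ezh1-null tamoxifen and Ezh1-present tamoxifen (adjusted p = 0.393). The oil intervals of Kat6b and of Kat6a (-1.25 to -0.67) did not overlap, and the difference between the 2 genes was not tested. Kat6a minus Kat6b within a library was set against the mean of that difference over the 8 libraries. It was then -0.58 and -0.41 in Ezh1-null tamoxifen and -0.53 and -0.34 in Ezh1-null oil libraries. In Ezh1-present libraries it was 0.34 and 0.23 after tamoxifen and 0.71 and 0.57 after oil. The difference thus lay below its mean in all Ezh1-null and above it in all Ezh1-present libraries.

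Of the subunits that Kat6a and Kat6b share, Meaf6 was lower in Ezh1-null cells and Brpf1 and Ing5 were not called. Meaf6 (gene 70088, chr4:125085147-125110069) had log2 relative values of -0.27 and -0.31 in Ezh1-null tamoxifen, -0.04 and -0.09 in Ezh1-null oil, 0.16 and 0.04 in Ezh1-present tamoxifen, and 0.34 and 0.30 in Ezh1-present oil libraries. The 4 groups did not overlap and stood in that order, from low to high. The log2 difference between Ezh1-null oil and Ezh1-present oil was -0.38 ± 0.09 (95% interval -0.60 to -0.16, limma adjusted p = 0.0325), 76.7% of the Ezh1-present oil level, and that between Ezh1-null tamoxifen and Ezh1-present tamoxifen was -0.39 ± 0.09 (adjusted p = 0.049), 76.3% of the Ezh1-present tamoxifen level. Both Meaf6 differences were nearer 0 than those of Kat6a, which was not tested. The oil difference was called in 7 of 15 alternatives (adjusted p from 0.0209 to 0.128) and ended without any 1 of the 4 oil libraries (0.0879, 0.128, 0.125 and 0.0961 without Ezh1-null oil replicate 1, Ezh1-null oil replicate 2, Ezh1-present oil replicate 1 and Ezh1-present oil replicate 2) or either Ezh1-null tamoxifen library (0.0608). The tamoxifen difference was called in 3 of 15 (adjusted p from 0.0288 to 0.157) and ended without any 1 of the 8 libraries (0.0812 to 0.157).

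Brpf1, the scaffold that holds the catalytic subunit and reads histone marks itself, varied little. Brpf1 (gene 78783, chr6:113307137-113324704) had log2 relative values of -0.02 and -0.05 in Ezh1-null tamoxifen, 0.19 and 0.11 in Ezh1-null oil, -0.11 and -0.14 in Ezh1-present tamoxifen, and 0.17 and 0.02 in Ezh1-present oil libraries. Tamoxifen libraries lay below oil libraries in both genotypes without overlap, while the 2 oil groups overlapped. The log2 difference between Ezh1-null oil and Ezh1-present oil was 0.06 ± 0.09 (95% interval -0.18 to 0.29, limma adjusted p = 0.691).

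Ing5, which ties the complex to histone H3 through its PHD finger, had the smallest range of the 8 genes. Ing5 (gene 66262, chr1:93803965-93822100) had log2 relative values of -0.01 and -0.11 in Ezh1-null tamoxifen, 0.06 and 0.19 in Ezh1-null oil, -0.10 and 0.06 in Ezh1-present tamoxifen, and 0.01 and -0.08 in Ezh1-present oil libraries. Both Ezh1-null oil libraries lay above all others except Ezh1-present tamoxifen replicate 2. That library (0.0648) lay between the 2 Ezh1-null oil libraries (0.0644 and 0.1944). The log2 difference between Ezh1-null oil and Ezh1-present oil was 0.17 ± 0.11 (95% interval -0.10 to 0.44, limma adjusted p = 0.309).

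Crebbp and Ep300 are close paralogues whose proteins, CBP and p300, acetylate histones and many transcription factors. Ep300 (gene 328572, chr15:81586214-81652077) had log2 relative values of 0.02 and -0.10 in Ezh1-null tamoxifen, 0.01 and -0.03 in Ezh1-null oil, -0.01 and -0.01 in Ezh1-present tamoxifen, and 0.37 and 0.33 in Ezh1-present oil libraries. Ezh1-present oil stood alone above the other 3 groups, which overlapped. The log2 difference between Ezh1-null oil and Ezh1-present oil was -0.36 ± 0.09 (95% interval -0.58 to -0.15, limma adjusted p = 0.0354), 77.7% of the Ezh1-present oil level, and after tamoxifen it was -0.03 ± 0.09 (adjusted p = 0.819). The oil call held in 4 of 15 alternatives (adjusted p from 0.0118 to 0.133) and ended without any 1 of the 8 libraries (0.0522 to 0.133).

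Crebbp (gene 12914, chr16:4084048-4213404) had log2 relative values of -0.02 and -0.07 in Ezh1-null tamoxifen, 0.16 and 0.02 in Ezh1-null oil, -0.21 and -0.16 in Ezh1-present tamoxifen, and 0.27 and 0.09 in Ezh1-present oil libraries. The oil groups overlapped, and Ezh1-present tamoxifen was lowest. The log2 difference between Ezh1-null oil and Ezh1-present oil was -0.09 ± 0.10 (95% interval -0.35 to 0.18, limma adjusted p = 0.584). The intervals of Crebbp and Ep300 in this comparison overlap, so an Ep300 call without a Crebbp call does not show that they differed. Within a library, Ep300 minus Crebbp ran from -0.22 to 0.18 when set against its mean over the 8 libraries (SD 0.14).

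The promoters of Meaf6, Ep300 and Crebbp are shown as the 250 bases before each start, since Meaf6 and Ep300 were called lower after oil in Ezh1-null cells and Crebbp, the paralogue of Ep300, was not (RefSeq, GRCm38.p6). They are chr4:125084884-125085133 (plus strand), chr15:81585964-81586213 (plus strand) and chr16:4213405-4213654 (minus strand), each written 5′ to 3′ with capitals marking a GC box, GGGCGG on either strand.
Meaf6: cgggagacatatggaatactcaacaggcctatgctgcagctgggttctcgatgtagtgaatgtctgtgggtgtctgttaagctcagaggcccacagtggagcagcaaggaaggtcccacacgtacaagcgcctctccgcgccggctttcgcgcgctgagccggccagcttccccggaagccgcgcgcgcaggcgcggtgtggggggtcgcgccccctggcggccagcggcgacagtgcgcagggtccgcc
Ep300: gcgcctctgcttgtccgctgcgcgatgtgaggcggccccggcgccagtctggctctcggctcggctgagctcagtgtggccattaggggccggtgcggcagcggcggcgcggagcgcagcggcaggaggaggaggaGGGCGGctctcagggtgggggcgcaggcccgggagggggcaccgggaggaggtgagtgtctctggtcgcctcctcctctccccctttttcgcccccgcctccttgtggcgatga
Crebbp: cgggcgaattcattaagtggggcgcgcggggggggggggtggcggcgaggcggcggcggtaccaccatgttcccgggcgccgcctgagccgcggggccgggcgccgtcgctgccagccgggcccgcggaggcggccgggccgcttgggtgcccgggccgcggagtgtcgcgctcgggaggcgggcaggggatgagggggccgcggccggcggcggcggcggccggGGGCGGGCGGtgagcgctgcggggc
All 3 are rich in CpG, with 25 in Meaf6, 25 in Ep300 and 44 in Crebbp, against a median of 6 over 27025 mouse genes. The GC content was 66.8%, 73.2% and 84% in the same order. Meaf6 held no GC box, Ep300 held 1 and Crebbp held 2 that overlap in sequence, while 32.9% of all promoters of this length held at least 1. None of the 3 held the Runx core TGTGGT (found in 14.2% of all promoters) or the E box CACGTG (6.05%), on either strand and with overlaps between motifs allowed. Promoter sequence was matched for 6 of the 8 genes, and not for Kat6a or Ncoa2. Kat6b had 27 and 29 CpG at its 2 starts, Ing5 had 26 and Brpf1 had 19.

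Counted together, 4 of the 8 genes were called lower and 0 higher in Ezh1-null oil against Ezh1-present oil libraries, where 12.4% of the 18051 genes tested were called lower and 12.5% higher. In Ezh1-null tamoxifen against Ezh1-present tamoxifen libraries, 2 of 8 were called lower (Kat6a and Meaf6) and 0 higher, where 5.44% of all genes were called lower and 6.77% higher. The median log2 difference of the 8 genes was -0.23 after oil and -0.04 after tamoxifen, against -0.04 and -0.00 over all genes. After oil, 4 of the 8 lay lower and 1 higher with no overlap between groups, where 34.7% and 31% of all genes did so, and after tamoxifen 3 lay lower and 3 higher, where 31.8% and 30.7% did. The share of called genes depends on which 8 genes are listed, and they were chosen with earlier results of these data known. The Ezh1-null oil libraries that were low for Kat6a, Ncoa2, Meaf6 and Ep300 were those with more B cell, neutrophil and mast cell marker RNA, as given above, and the part of these cells in the result was not tested. Marker lists also differed between Ezh1-null tamoxifen and Ezh1-present tamoxifen libraries. The leukaemia and myeloid progenitor list had a median of 0.74, with 8 of 10 above 0 and 6 of 10 called higher. The B cell list had a median of 3.45 (5 of 8 called higher), the mast cell, basophil and eosinophil list 2.58 (2 of 8 called higher) and the mature neutrophil list 2.12, with 9 of 9 above 0, 0 called by limma and 6 at an unadjusted p under 0.05. The stromal and endothelial list had a median of -1.49 (7 of 7 below 0, 1 called lower), the megakaryocyte and platelet list -1.11 (6 of 7 below 0, 1 called lower), the T and NK cell list -0.97 (8 of 10 below 0, 1 called lower) and the erythroid list -0.87 (7 of 8 below 0, 0 called by limma and 0 at an unadjusted p under 0.05). The part of these cells in the Kat6a and Meaf6 differences after tamoxifen was not tested.

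**Figure D3:**
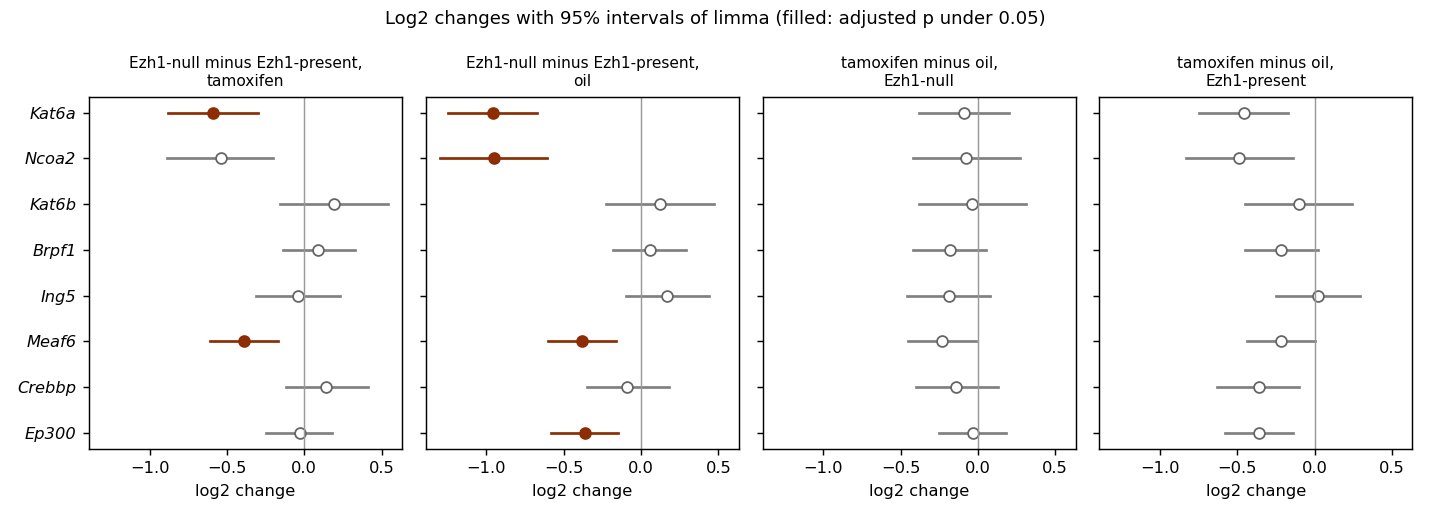
Log2 change (horizontal axis) of the 8 genes in 4 comparisons, with 95% intervals of the limma fit as bars and called changes filled. In oil, Kat6a, Ncoa2, Meaf6 and Ep300 are called lower in Ezh1-null cells (-0.96 to -0.36), after tamoxifen Kat6a and Meaf6 are, and no tamoxifen change is called in either genotype.

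Tamoxifen, which marks Ezh2 deletion, gave no called change in any of the 8 genes in either Ezh1 genotype. In Ezh1-present cells, 7 of 8 genes lay lower in tamoxifen than in oil libraries with no overlap, where 25.3% of all genes did so. By limma, 0 of 8 passed the adjusted threshold and 4 of 8 had an unadjusted p under 0.05, where 0.903% of all genes were called in either direction and 9.04% lay lower at that unadjusted p. Those 4 were Kat6a, with a log2 change of -0.46 ± 0.11 (adjusted p = 0.125), Ncoa2, with -0.49 ± 0.14 (0.146), Ep300, with -0.36 ± 0.09 (0.119), and Crebbp, with -0.36 ± 0.10 (0.153). Ing5 was the exception to the direction, at 0.02 ± 0.11 (0.935). The median of the 8 genes was -0.29, against 0.01 over all genes. The same Ezh1-present tamoxifen libraries had higher values for 10 of 10 T and NK cell markers (list median 3.81, with 2 called) and for 8 of 8 erythroid markers (median 3.07, 0 called by limma, 5 with an unadjusted p under 0.05). The mast cell, basophil and eosinophil list had a median of 3.46 (7 of 8 above 0), the mature neutrophil list 2.23 (9 of 9), the megakaryocyte and platelet list 2.16 (7 of 7), the stromal and endothelial list 1.04 (6 of 7) and the B cell list 0.22 (5 of 8). In these 5 lists 0 markers were called by limma, and 8, 6, 5, 3 and 1 had an unadjusted p under 0.05 in the order given. The leukaemia and myeloid progenitor list had a median of 0.22 (8 of 10 above 0). By limma, 0 of its markers were called and 4 had an unadjusted p under 0.05. The part of these cells in the values was not tested.

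In Ezh1-null cells the tamoxifen changes were nearer 0 than in Ezh1-present cells for 6 of the 8 genes. By limma, 0 of 8 genes were called and 1 of 8 had an unadjusted p under 0.05, where 3.4% of all genes were called in either direction and 5.6% lay lower at that unadjusted p. That gene was Meaf6, at -0.23 ± 0.09 (adjusted p = 0.268). All 8 log2 changes were below 0, from -0.23 to -0.03 with a median of -0.11, and 4 of 8 genes lay lower in tamoxifen without overlap, where 24.8% of all genes did. Kat6a and Ncoa2 changed by -0.09 ± 0.11 and -0.08 ± 0.14 (adjusted p = 0.749 and 0.83). The T and NK cell list had a median of 1.68 (7 of 10 above 0, 1 called higher). The B cell list had a median of -1.32 (7 of 8 below 0) and the erythroid list -0.67 (6 of 8 below 0), with 0 called in either. The other lists had medians from -0.09 (leukaemia and myeloid progenitor) to 0.79 (mast cell, basophil and eosinophil). The part of these cells in the values was not tested here either.

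The difference between the tamoxifen changes in the 2 genotypes was tested directly as an interaction, Ezh1-null minus Ezh1-present. By limma, 0 of 8 genes were called, with 1 of 8 at an unadjusted p under 0.05, where 0.476% of all genes were called in either direction and 8.9% were higher at that unadjusted p. Kat6a had an interaction of 0.37 ± 0.16 (adjusted p = 0.366), Ncoa2 of 0.41 ± 0.19 (0.392) and Ep300 of 0.33 ± 0.12 (0.31). A different tamoxifen change in Ezh1-null and Ezh1-present cells was therefore not shown for any of these genes. With 2 libraries per group the intervals leave room for such a difference. The marker lists had interaction medians from -3.48 (erythroid, 8 of 8 below 0) to -0.34 (leukaemia and myeloid progenitor, 8 of 10 below 0). That of the T and NK cell list was -1.82 (10 of 10 below 0), and 0 markers of these 3 lists were called by limma. The part of cell composition in the interaction was not tested.

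The other subunits of the Kat6 and Kat7 complexes moved in both directions. Of 7 such genes, 2 were called higher and 1 lower in Ezh1-null oil against Ezh1-present oil libraries, where 12.5% of all genes were called higher and 12.4% lower. Brd1, the Brpf1 paralogue also called Brpf2, had log2 relative values of -0.73 and -0.75 in Ezh1-null tamoxifen, -0.51 and -0.49 in Ezh1-null oil, 0.70 and 0.49 in Ezh1-present tamoxifen, and 1.09 and 0.97 in Ezh1-present oil libraries. All Ezh1-null libraries lay below all Ezh1-present ones, with log2 differences of -1.52 ± 0.11 in oil (limma adjusted p = 0.00257) and -1.33 ± 0.11 in tamoxifen libraries (0.00728). The oil difference was called in 15 of 15 alternatives and the tamoxifen difference in 14 of 15. Jade1, a scaffold of the Kat7 complex, was higher by 1.31 ± 0.18 in Ezh1-null oil (0.00874, called in 15 of 15). Brpf3, the other scaffold paralogue, was higher by 0.53 ± 0.13 (0.0411), a call that held in 5 of 15 alternatives and ended without any 1 of the 8 libraries (adjusted p from 0.0538 to 0.133). Among the 3 Brpf genes, Brd1 was thus lower, Brpf3 higher and Brpf1 not called.

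Of 13 other lysine acetyltransferase genes, 1 was called lower and 0 higher in Ezh1-null oil against Ezh1-present oil libraries by limma, with 3 at an unadjusted p under 0.05, a called share no larger than that of all genes (12.4% lower, 12.5% higher). That gene was Ncoa3, a sister coactivator of Ncoa2, at -0.53 ± 0.09 (limma adjusted p = 0.0132, called in 12 of 15 alternatives, lost without Ezh1-null oil replicate 2 at 0.0651 and without Ezh1-present oil replicate 1 at 0.0657). In Ezh1-null tamoxifen against Ezh1-present tamoxifen libraries, 1 was called lower (5.44% of all genes), Hat1, which acetylates newly made histones, at -0.69 ± 0.11 (0.0257). It held in 10 of 15 and ended without any 1 of the 4 tamoxifen libraries (from 0.0704 to 0.112). Clock, the circadian regulator, was called higher by 1.02 ± 0.15 after tamoxifen in Ezh1-null cells (0.0377, where 3.4% of all genes were called), held in 3 of 15 and ended without any 1 library (from 0.0694 to 0.136).

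Histone deacetylases remove the marks that the acetyltransferases place. Of 16, 3 were called higher and 1 lower in Ezh1-null oil against Ezh1-present oil libraries, near the shares of all genes (12.5% higher, 12.4% lower). Hdac9, a class IIa deacetylase, had log2 relative values of 0.86 and 0.86 in Ezh1-null tamoxifen, 0.41 and 0.21 in Ezh1-null oil, -0.74 and -0.21 in Ezh1-present tamoxifen, and -1.83 and -2.03 in Ezh1-present oil libraries. Every Ezh1-null library lay above every Ezh1-present library, with log2 differences of 2.25 ± 0.20 in oil (limma adjusted p = 0.00362, called in 15 of 15 alternatives) and 1.34 ± 0.20 in tamoxifen libraries (0.022, called in 10 of 15). The tamoxifen call ended without either Ezh1-null tamoxifen library (0.0979 and 0.0892) or Ezh1-present tamoxifen replicate 1 (0.0502). Hdac4, of the same class, was higher by 0.84 ± 0.13 in oil (0.0109), a call lost without Ezh1-null oil replicate 2 (0.0583) or Ezh1-present oil replicate 2 (0.0547). It was higher by 0.75 ± 0.13 in tamoxifen libraries (0.0271), a call lost without any 1 library (from 0.0521 to 0.108). Sirt2 was higher by 0.70 ± 0.08 in oil (0.00583, called in 15 of 15), and Sirt3, the mitochondrial deacetylase, was lower by 0.50 (log2 -0.50 ± 0.10, 0.0247, called in 9 of 15), a call lost without any 1 of the 4 oil libraries (from 0.0715 to 0.107) or either Ezh1-null tamoxifen library (0.0504).

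Readers of acetyl-lysine bind the mark through bromodomains, YEATS domains or double PHD fingers. Of 15, 1 was called in each comparison of the genotypes, where 12.5% of all genes were called higher and 12.4% lower in oil and 6.77% and 5.44% in tamoxifen libraries. It was Brd3 of the BET family, which was higher by 0.57 ± 0.08 in Ezh1-null oil against Ezh1-present oil libraries (limma adjusted p = 0.00888, called in 15 of 15 alternatives) and by 0.49 ± 0.08 in Ezh1-null tamoxifen against Ezh1-present tamoxifen libraries (0.0256, called in 5 of 15). Leaving out any single library of the 8 ended the tamoxifen call, with adjusted p from 0.0512 to 0.101.

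**Figure D4:**
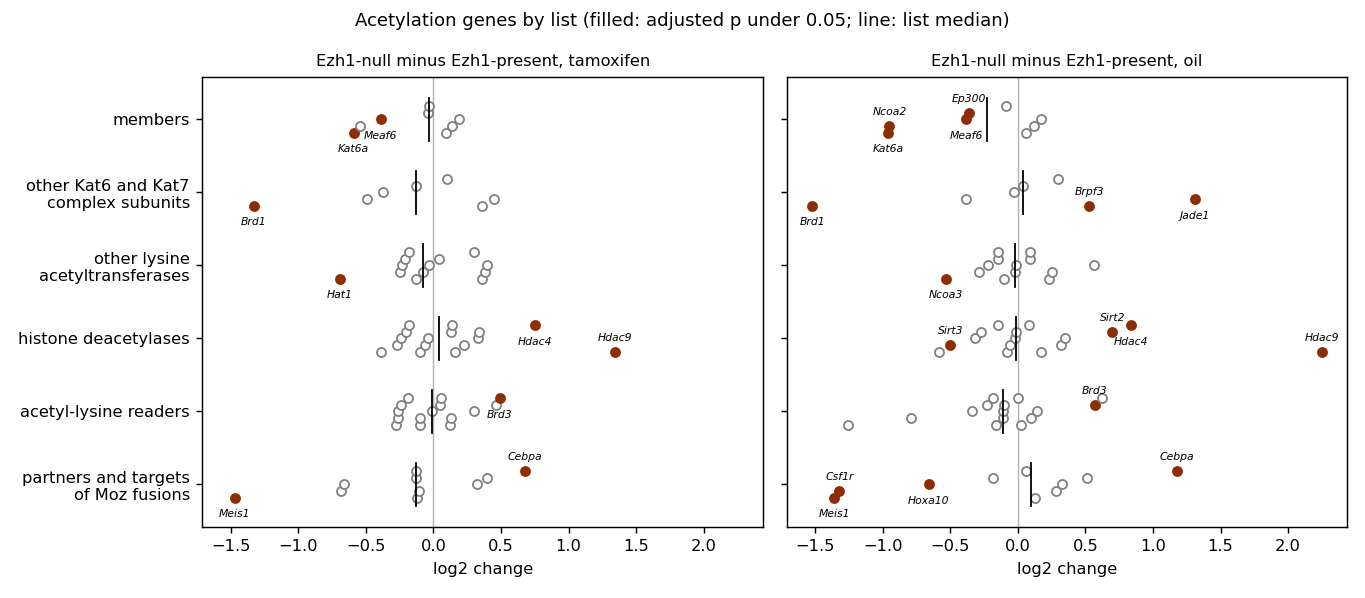
Log2 change (horizontal axis) of each gene (points) in 6 lists of acetylation and Moz-related genes for Ezh1-null minus Ezh1-present in tamoxifen and in oil, with called genes filled and list medians as vertical lines. The list medians lie between -0.23 and 0.09, with single genes such as Brd1 (-1.52 in oil), Meis1 (-1.36) and Hdac9 (2.25) far from them.

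The last list holds 10 transcription partners and reported target genes of Moz fusions in leukaemia, of which 1 was called higher and 3 lower in Ezh1-null oil against Ezh1-present oil libraries, where 12.5% of all genes were called higher and 12.4% lower. Meis1, a homeodomain cofactor of Hox proteins that is turned on by several leukaemia fusions, had log2 relative values of -1.10 and -1.01 in Ezh1-null tamoxifen, -0.44 and -0.37 in Ezh1-null oil, 0.46 and 0.37 in Ezh1-present tamoxifen, and 1.05 and 0.85 in Ezh1-present oil libraries. The 4 groups did not overlap, in the same order as for Meaf6. The log2 difference was -1.36 ± 0.11 in oil (limma adjusted p = 0.00294, called in 15 of 15 alternatives) and -1.47 ± 0.11 in tamoxifen libraries (0.00656, called in 14 of 15). Meis1 also fell after tamoxifen in Ezh1-null cells, with a log2 change of -0.65 ± 0.11 (0.045), a call that held in 3 of 15 and ended without any 1 library (from 0.0648 to 0.18).

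Csf1r, the macrophage colony-stimulating factor receptor and a target of MOZ-TIF2 in mouse leukaemia, had log2 relative values of -0.18 and -0.51 in Ezh1-null tamoxifen, -0.42 and -0.67 in Ezh1-null oil, 0.48 and 0.18 in Ezh1-present tamoxifen, and 0.84 and 0.71 in Ezh1-present oil libraries. Ezh1-null libraries lay below Ezh1-present libraries throughout. The log2 difference in oil was -1.32 ± 0.18 (limma adjusted p = 0.00874), which was lost only without Ezh1-present oil replicate 1 (0.0532) among 15 alternatives. Hoxa10 was lower by 0.66 (log2 -0.66 ± 0.16, 0.0382, called in 7 of 15, lost without any 1 of the 4 oil libraries or either Ezh1-null tamoxifen library, from 0.0593 to 0.153). Cebpa, a driver of granulocyte differentiation, was higher by 1.18 ± 0.14 in oil (0.0066, called in 15 of 15) and by 0.68 ± 0.14 in tamoxifen libraries (0.043, called in 4 of 15, lost without any 1 library, from 0.062 to 0.138).

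Hoxa9 (0.06), Runx1 (-0.18), Spi1 (0.28), Myb (0.33), Trp53 (0.13) and Hoxa7 (0.51) were not called in oil, values being log2 differences. Runx1 and Spi1 encode partners that MOZ binds. The median of the list was 0.09 in oil and -0.12 in tamoxifen libraries, against -0.04 and -0.00 over all genes, and 6 of its 10 genes lay above 0 in oil and 4 below. The Ezh1-null oil libraries also had higher progenitor markers than Ezh1-present oil, with Kit higher by 1.26 ± 0.17 (limma adjusted p = 0.00848) and 6 of 10 markers of that list called higher and 1, Csf1r, lower. Csf1r and Cebpa stand in both lists, and the part of cell composition in these differences was not tested.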

How the data were processed

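RNA sequencing of 8 libraries in 4 groups of 2 was analysed from the deposited tables. Per the file headers the deposited values are normalized, and they are log2 values centred by the authors on each gene's median over the 8 libraries (largest absolute row median 9.55e-07). Genome build mm10 and TruSeq libraries are given per the labels; the sources used here do not give the aligner, counter or scaling. Genes were fitted with limma 3.58.1 (R 4.3.3), with 1 coefficient per group, empirical Bayes without a trend and Benjamini-Hochberg adjustment over 18051 genes (at least 2 libraries above the floor), and called at adjusted p under 0.05. The floor is the lowest value where at least 2 libraries tied; 12530 genes lay there in every library and 993 had 1 library above it. The fit was tested on simulated data. With 2 libraries against 2 the smallest exact permutation p is 0.333, so no permutation test was made. Members and lists were chosen with earlier results of these data known. Named were all members, Ezh1 and Ezh2, up to 4 called genes per list and comparison, and the 5 genes most correlated with Kat6a and with Ncoa2. Named outside this rule, after their values were seen, were the neighbours of Kat6a and Ncoa2, the uncalled Hoxa9, Runx1, Spi1, Myb, Trp53 and Hoxa7 (which complete their list), and the markers Kit, Pax5 and Fcer1a. Tables were handled in pandas 2.3.3 (Python 3.11.15) and plotted in matplotlib 3.10.9. Alternatives were a variance trend, robust moderation, quantile normalization, filters, only the groups compared, a replicate block and each library left out.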

Additional observations from a re-analysis of the deposited data

How the results depend on the processing

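Quantile normalization moved the median over all genes by at most -0.085 on the log2 scale. The number of the 8 genes called in Ezh1-null tamoxifen against Ezh1-present tamoxifen was 1 with a variance trend, with robust moderation or with no filter, 0 with only the 2 groups compared, and 0 to 1 with a library left out. After oil it was 2 with quantile normalization or only the 2 groups compared, and 1 to 3 with a library left out. Tamoxifen comparisons and the interaction kept 0 called members under every alternative. Over all genes, the trend gave 0 calls for tamoxifen in Ezh1-null, tamoxifen in Ezh1-present and the interaction. Only the 2 groups compared gave 240, 0, 27 and 2531 calls for tamoxifen in Ezh1-null, tamoxifen in Ezh1-present, and Ezh1-null against Ezh1-present after tamoxifen and after oil. The interaction gave 37 with quantile normalization and 6 with all libraries above the floor. With a library left out, the counts were 176 to 469, 24 to 404, 337 to 1323 and 1707 to 4004 in the same order of comparisons, and 17 to 98 for the interaction.

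Replicate numbers showed little pairing of libraries between groups (correlations of deviations -0.091 to 0.124 over 15517 genes), which cannot exclude a pairing. With them as a replicate block, 0 members were called after tamoxifen, and all-gene counts were 364 and 23 for tamoxifen in Ezh1-null and Ezh1-present, 1179 for Ezh1-null against Ezh1-present after tamoxifen and 5 for the interaction.

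Signs turned in values that were not called. Under quantile normalization, Ing5 changed by -0.0014 after tamoxifen in Ezh1-present cells and Brpf1 had an interaction of -0.0038. With a library left out, the tamoxifen change in Ezh1-null cells ran from -0.20 to 0.13 for Kat6b, -0.18 to 0.024 for Ncoa2 and -0.093 to 0.029 for Ep300, and that of Ing5 in Ezh1-present cells from -0.059 to 0.10. Ezh1-null against Ezh1-present after oil ran from -0.042 to 0.29 for Kat6b, -0.019 to 0.13 for Brpf1 and -0.18 to 0.0049 for Crebbp, and after tamoxifen from -0.12 to 0.039 for Ing5 and -0.10 to 0.027 for Ep300. The interaction ran from -0.10 to 0.23 for Kat6b, -0.068 to 0.053 for Meaf6 and -0.041 to 0.11 for Brpf1. The causes were not tested. Total counts per library are unknown, and values of lower genes are less precise.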
